A study of Homo sapiens with 2 samples.

Results

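Band 9q34 is the outermost part of the long arm of human chromosome 9, and it was examined as one of the regions richest in summits of ZMYND8 ChIP-seq. Its members were every summit of both deposited lists at hg19 chr9:130300001-141213431, which runs from the first base of 9q34.11 to the chromosome end and spans 10.9 Mb. The rule took 872 of the 45924 parental summits (1.90%) and 2 of the 385 knockout summits (0.519%). The region was chosen on its density of parental summits and its near lack of knockout summits, so both are given below as descriptions, with no test. Summit scores played no stated part in the choice.

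The study profiled mammospheres, floating cultures that enrich for stem-like cells, of MDA-MB-231, an established line from a triple-negative breast cancer. It has 2 libraries, 1 of the parental line (genotype wildtype) and 1 of a ZMYND8 knockout of that line, both grown in MammoCult medium and precipitated with the same antibody against ZMYND8. Whether the knockout cells are 1 clone or a pool is not stated. Each library is a list of peak summits, with 1 position and 1 score each, so neither expression of ZMYND8 nor markers of the cells could be checked. Scores are −log10 values of the peak caller, either of p or of q, and are used only to rank or describe summits of the same list. With 1 library per genotype no difference has a replicate check, and all intervals are 95% intervals for counting error only. The number of reads behind the lists is not known from the sources at hand, and a shallower library alone can give a shorter list.

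ZMYND8 is a chromatin reader: its bromodomain, PHD finger and PWWP domain bind modified histone tails, and it brings partners such as the NuRD complex and histone demethylases to enhancers and promoters. ChIP-seq with an antibody recovers the DNA that lay near the protein, and a peak summit is the base where the pile of reads was highest. A library from cells without the target shows what the antibody or the assay recovers on its own. Band 9q34 is known as a gene-rich end of a chromosome. It carries ABL1, the kinase gene fused to BCR in chronic myeloid leukaemia, NOTCH1, the receptor of a cell fate pathway, and several genes for chromatin proteins, among them the BET reader BRD3 and the histone methyltransferase EHMT1.

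Sequences under the summits themselves were not analysed here, since they need an hg19 genome. Of the genes of 9q34, 3 could be placed in hg19 from transcript models: CERCAM, an adhesion molecule of cerebral endothelium, EXOSC2, a subunit of the RNA exosome, and PAEP, which encodes the secreted lipocalin glycodelin of the reproductive tract. For 2 of them the 250 bases before the gene's start are shown, because they form a contrast: a parental summit lay 131 bp past the EXOSC2 start, and none lay within 5000 bp of the PAEP start. The sequences are RefSeq's, on the plus strand of build GRCh38.p14, at chr9:130693510-130693759 for EXOSC2 and chr9:135561506-135561755 for PAEP. Those coordinates are not on the scale of the hg19 positions used everywhere else. Capitals mark matches, on either strand, to the CCAAT box (letters CCAAT), the GC box (letters GGGCGG) and the TATA box (letters TATAAA), which share no letters with one another in these stretches.
EXOSC2: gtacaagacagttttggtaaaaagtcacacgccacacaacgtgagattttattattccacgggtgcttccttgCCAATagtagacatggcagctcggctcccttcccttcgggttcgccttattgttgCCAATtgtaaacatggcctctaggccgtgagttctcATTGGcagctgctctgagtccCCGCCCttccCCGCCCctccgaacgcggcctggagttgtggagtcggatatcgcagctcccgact
PAEP: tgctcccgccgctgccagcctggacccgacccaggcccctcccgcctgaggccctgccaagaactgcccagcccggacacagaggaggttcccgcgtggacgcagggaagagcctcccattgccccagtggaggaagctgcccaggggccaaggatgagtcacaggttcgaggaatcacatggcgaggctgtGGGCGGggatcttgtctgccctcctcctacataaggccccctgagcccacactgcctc

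The EXOSC2 stretch held 3 CCAAT and 2 GGGCGG matches, 15 CpG dinucleotides and 54.4% G and C. The PAEP stretch held no CCAAT and 1 GGGCGG match, 11 CpG dinucleotides and 67.2% G and C. It was thus the richer of the pair in G and C and the poorer in CpG. Because the pair was picked for its contrast in summits, it cannot link composition to summits. Neither stretch held TATAAA. Of all 22199 coding-gene promoters in the RefSeq table, cut to the same 250 bases, 32.7% held CCAAT, 53.7% held GGGCGG and 9.0% held TATAAA. A match is a description of the letters, not a binding site.

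Parental summits were frequent in 9q34 taken whole, with a sparse stretch in its middle. The region held 79.9 parental summits per Mb (95% exact Poisson interval 74.7 to 85.4). The rest of chromosome 9 held 11.1 per Mb (10.5 to 11.7), and chromosomes 1 to 22 and X without 9q34 held 14.9 (14.75 to 15.03). Band 9q34 thus made up 7.73% of the length of chromosome 9 and 37.6% of its parental summits. Its density was 7.19 times that of the rest of the chromosome and 5.37 times that of chromosomes 1 to 22 and X without 9q34.

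Within 9q34 the bands ran from 97.5 summits per Mb to 26.3. The order was 9q34.11 with 312 summits (97.5 per Mb, 87.0 to 108.9), 9q34.3 with 346 (90.7, 81.4 to 100.8), 9q34.2 with 134 (89.3, 74.8 to 105.8), 9q34.12 with 30 (60.0, 40.5 to 85.7) and 9q34.13 with 50 (26.3, 19.5 to 34.7). The intervals of 9q34.11, 9q34.3 and 9q34.2 overlapped one another, and that of 9q34.12 overlapped those of 9q34.3 and 9q34.2 but not that of 9q34.11. The interval of 9q34.13 lay below those of all the others. All these intervals treat summits as independent, which close neighbours need not be, so they may be too narrow. Their overlap is a description of density, not a test between bands. Among 851 bands of chromosomes 1 to 22 and X, ranked by parental density, 9q34.11 stood at 10, 9q34.3 at 11 and 9q34.2 at 13, while 9q34.12 stood at 40 and 9q34.13 at 165. Ranks of short bands rest on few summits.

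The start of the region is the edge of a chromosome band, not a step in the data. The last summit before it, at 130298711 with a score of 5.54, lay 1290 bp outside, and the first summit inside, at 130302382 with a score of 2.93, lay 2381 bp in. The last 100 kb before the edge already held 24 summits. Over a longer stretch the sides differed: the 1 Mb before the edge held 49 summits and the first 1 Mb inside held 127, and the band before it, 9q33.3, held 34.9 per Mb (29.6 to 40.8). At the other end, summits stopped 245885 bp short of the chromosome end. The last summit lay at 140967546, with a score of 3.79.

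In windows of 100 kb counted from the first base of 9q34, the median was 6 parental summits (quartiles 3 and 10.8) and the maximum was 30. There were 110 windows, the last of them only 13431 bp long. Of these, 33 (30.0%) held 10 or more summits, a mark that 3.36% of the 30376 windows of chromosomes 1 to 22 and X reached. Windows with no summit numbered 9 in 9q34 (8.18%), against 61.3% over the same chromosomes. The 33 fuller windows held 561 of the 872 summits (64.3%), and 22 windows were enough to hold 50% of them.

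**Figure D1:**
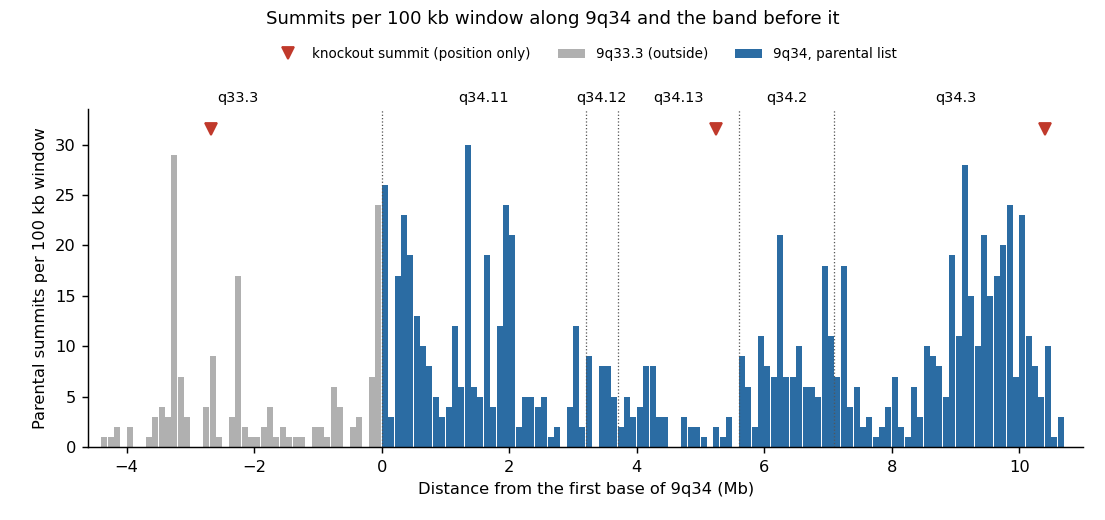
Parental summits per 100 kb window (bars, y axis) against distance in Mb from the first base of 9q34 (x axis). Grey bars are the preceding band 9q33.3, blue bars 9q34, dotted lines band edges and red triangles the positions of knockout summits; the blue bars form a dense first stretch, a sparse middle with 6 empty windows and a dense outer stretch that ends before the chromosome does.

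The fullest window was at 131600001-131700000 in 9q34.11 with 30 summits, followed by 139400001-139500000 in 9q34.3 with 28 and 130300001-130400000, the first window of the region, with 26. The windows at 132200001-132300000 and 140100001-140200000 held 24 each. All of these lay in 9q34.11 or 9q34.3. Across chromosomes 1 to 22 and X, 65 windows held more than 30 summits, up to 68. The longest stretch of windows with no summit was the outermost one, 3 windows from 141000001 to the chromosome end. The other 6 empty windows all lay in the middle of the region, where the widest gap between neighbouring summits, 296584 bp, ran from 134740095 to 135036679.

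These counts fell into 3 parts, whose edges were set after the counts had been seen. The first 2.1 Mb held 270 summits (128.6 per Mb), the next 3.5 Mb held 122 (34.9 per Mb) and the outer 5.31 Mb held 480 (90.3 per Mb). The median window held 12, 3 and 7 summits in that order. The sparse middle part was as thinly covered as 9q33.3, at 34.9 per Mb each. For comparison, the whole of 17q25.3 held 117.6 per Mb (109.0 to 126.6) and 11q13.1 held 115.2 (102.3 to 129.3). The densest single Mb lay in the outer part, from 139300001 to 140300000, with 168 summits. The median score was 3.79 in each part, which is also the commonest single value, so small differences could be hidden. Between bands the median did differ, with 2.93 in 9q34.13. A score of at least 10 was reached by 5.56% of the summits of the first part (3.14 to 8.998). In the middle it was 4.10% (1.34 to 9.31) and in the outer part 2.29% (1.15 to 4.06). These exact Clopper-Pearson intervals overlapped, which does not show that the shares are alike, and the difference was not tested.

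Density at the end of a chromosome arm is not in itself unusual in this list, so the last 10.9 Mb of 9q was set beside stretches of the same length at the ends of the other arms. Of 41 arm ends, 9q ranked 3 with 79.9 per Mb, after 8q with 116.6 and 17q with 89.98 and ahead of 19p with 73.2. The median arm end held 27.3 per Mb. The end of 20q, next in order, held 53.1.

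**Figure D2:**
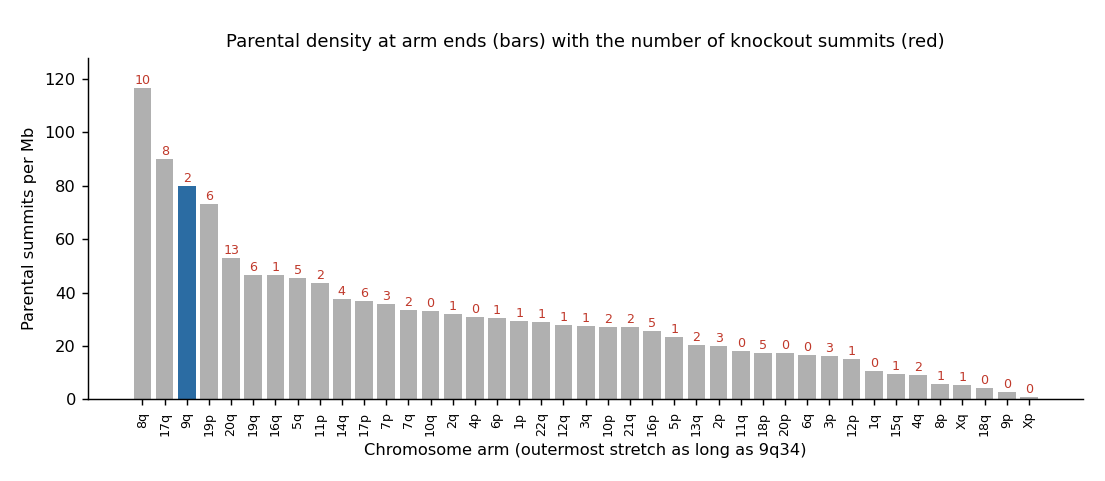
Parental summits per Mb (y axis) in the outermost 10.9 Mb of each of 41 chromosome arms (x axis), with the number of knockout summits in the same stretch in red above each bar. The blue bar is 9q, at rank 3 in parental density with 2 knockout summits, between ends with 8 and 6.

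Neighbouring summits lay close together. The median gap between successive parental summits was 3522 bp in 9q34 and 5820.5 bp on chromosomes 1 to 22 and X without 9q34. The upper quartile was 13190.5 bp in 9q34 and 38878 bp outside it. Spacing at the shortest range was alike: 42.5% of the 9q34 summits and 41.1% of the others had a neighbour within 1000 bp, and 16.2% and 17.7% had one within 500 bp. The lists parted at longer range, where 77.2% of the 9q34 summits and 67.7% of the others had a neighbour within 5000 bp. Only 8 of the 872 (0.917%) had no neighbour within 50 kb, against 9.21% elsewhere. These figures restate the density at other distances and are not separate evidence of it.

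Runs, defined as 5 or more parental summits each at most 5000 bp from the next, numbered 40 in 9q34. They held 310 of its summits (35.6%), against 27.2% of the summits of chromosomes 1 to 22 and X, and covered 397.3 kb, or 3.64% of the region. Most were short: 13 held exactly 5 summits, 7 held 10 or more, and the median was 6.5. By band, 18 began in 9q34.3, 16 in 9q34.11, 5 in 9q34.2, 1 in 9q34.12 and none in 9q34.13. The first of them, at 130302382-130308652, was counted from the band edge, although the last summit before the edge was also within 5000 bp of it. No run had a knockout summit within 1000 bp.

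The largest run lay at 131661308-131687675 in 9q34.11, with 23 summits over 26.4 kb. Its scores ran from 1.45 to 23.1, the highest of all 872, with a median of 3.79, and 3 of them reached 10: 11.2 at 131678451, 23.1 at 131679847 and 13.3 at 131683105. The 3 high summits lay within 5 kb of each other, and the 8 summits in the first 11 kb of the run all scored below 4. The run is therefore a few high summits in a field of low ones, and 40 runs of the genome, itself included, were at least as large, the largest having 82 summits.

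The next run, at 132245413-132263007 in 9q34.11, held 17 summits over 17.6 kb, and its highest, with a score of 17.5, was its first. A run at 130318221-130333739, near the inner edge of the region, held 14 summits over 15.5 kb and had the highest median score of the 5 largest, 5.79, with a maximum of 20.3, again at its first summit. A run at 136573510-136582599 in 9q34.2 packed 12 summits into 9.09 kb, with a maximum of 13.6. The run at 139734885-139761005 in 9q34.3 spread 12 summits over 26.1 kb, with a maximum of 11.2 at its last summit. In each of these 5 runs the lowest score was 2.14 or 1.45, so low summits lay in the same runs as the high ones.

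**Figure D3:**
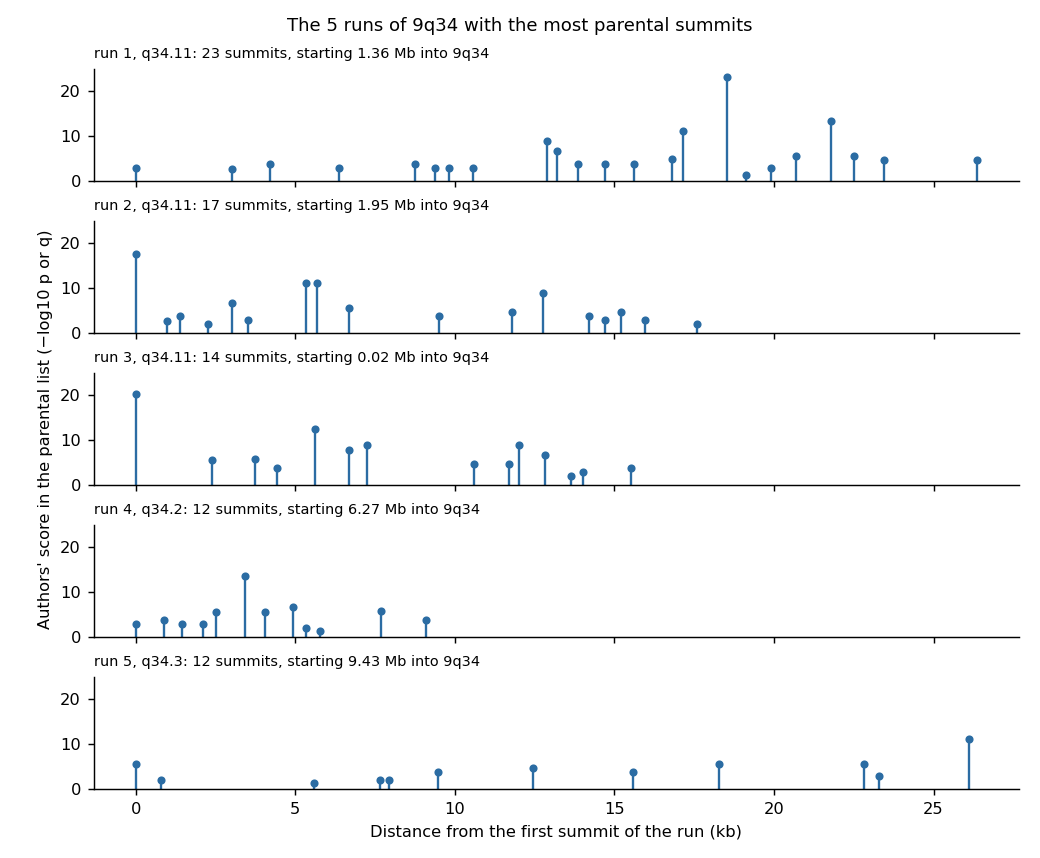
Parental summits of the 5 largest runs in 9q34, as distance in kb from the run's first summit (x axis) against the authors' score (y axis); each stem is 1 summit. Every run has 1 to 3 summits with a score of at least 10 among lower ones, and the run in 9q34.2 is the most compact at 9.09 kb.

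Summit scores in 9q34 were not high for the parental list. The median, 3.79, and the lower quartile, 2.93, were those of the list as a whole, but the upper quartile was 4.71 against 5.68. The medians of 17q25.3 and 11q13.1 were higher, at 4.10 and 4.34. A score of at least 10 was reached by 31 of the 872 summits (3.56%, exact Clopper-Pearson interval 2.43 to 5.01), against 6.27% of the whole list. On the rest of chromosome 9 the share was 7.46% (6.16 to 8.93), in 17q25.3 it was 6.64% (4.90 to 8.75) and in 11q13.1 it was 9.72% (6.56 to 13.7). The interval of 9q34 lay below those of the rest of chromosome 9 and of 11q13.1 and overlapped that of 17q25.3 at its edge. These intervals treat summits as independent, which neighbours in a run need not be, and the cause of the lower share was not tested.

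None of the 872 stood among the 100 highest parental summits, 13 had a rank of 1000 or better, and the best rank was 170. By class, 37.0% of the 9q34 summits scored 2 to 3 (33.8 to 40.3), against 30.3% elsewhere, and 16.97% scored 5 to 10 (14.5 to 19.6), against 23.5%. Scores took few values. The 4 commonest values of the parental list, 3.79, 2.93, 4.71 and 2.14, accounted for 542 of the 872 summits (62.2%). On chromosomes 1 to 22 and X without 9q34 they accounted for 39.2%. Ranks below the highest scores are therefore heavily tied, more so in 9q34 than elsewhere.

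**Figure D4:**
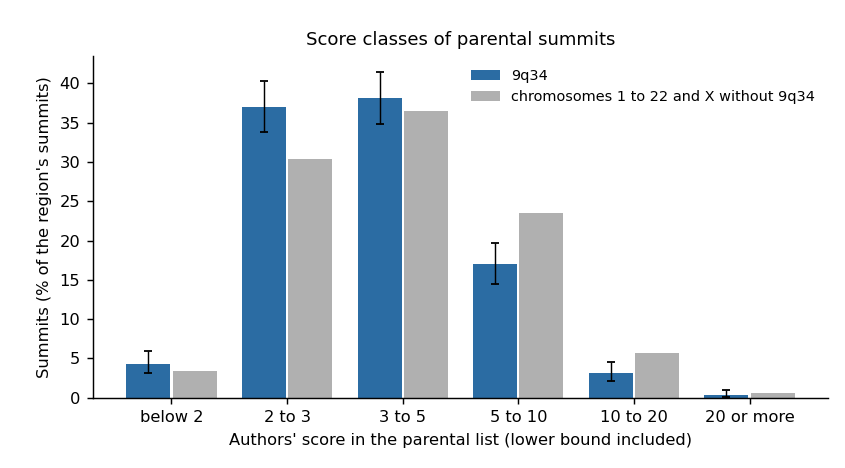
Share of parental summits in each class of the authors' score (x axis), as a percent of the summits of 9q34 (blue, n = 872, error bars 95% Clopper-Pearson) and of chromosomes 1 to 22 and X without 9q34 (grey, n = 45045). The blue bars are higher at scores of 2 to 3 (37.0% against 30.3%) and lower at 5 to 10 (16.97% against 23.5%).

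Scores were also compared between dense and sparse places, although many scores were tied at the median. Summits in windows with 10 or more had a median score of 3.79, as did those in windows with 1 to 9, and 3.74% and 3.22% of them reached 10. Inside runs the median was again 3.79, as it was outside them, but the upper quartile was 5.68 inside and 4.71 outside. Inside runs 17 of 310 summits reached 10 (5.48%, 3.23 to 8.64). Outside runs it was 14 of 562 (2.49%, 1.37 to 4.14). The intervals overlapped, which does not show that the shares are alike, and the difference was not tested.

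Most of the 20 highest parental summits lay in 9q34.11. The first, with a score of 23.1 at 131679847 in 9q34.11 (rank 170 of the list), sat in the largest run. The second, 22.1 at 135545246 in 9q34.13 (rank 198), lay in the sparse middle part, with 1 other summit within 10 kb, 1066 bp away. The third, 20.3 at 130318221 (rank 257), opened the run near the inner edge. In 9q34.3 the highest were 18.9 at 139120499, 17.5 at 140307032, 16.2 at 139304534 and 14.9 at 139462352. In 9q34.2 they were 13.6 at 136576926 and 12.4 at 136242555, and in 9q34.12 the highest was 11.2 at 133710792.

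Of all 872 summits, 312 lay in 9q34.11, 346 in 9q34.3, 134 in 9q34.2 and 50 in 9q34.13, and 310 belonged to a run. Of the 20 highest summits, 13 lay in 9q34.11, 4 in 9q34.3, 2 in 9q34.2 and 1 in 9q34.13, and 12 of the 20 belonged to a run. The members not yet given were 17.5 at 132245413, 14.9 at 132754047, 14.002 at 133455112, 13.6 at 130565294 and 131637625, 12.4 at 130323841, 130728436 and 131581061, and 11.2 at 132250759. A score of 11.2 was shared by 7 summits, of which the 2 with the lowest positions completed the set of 20. Both lay in 9q34.11. The tied summits left out were 132251101 in 9q34.11, 133710792 in 9q34.12, and 139121155, 139761005 and 140388193 in 9q34.3. The next score below was 10.9. Of these 20 summits 1 had a knockout summit within 1000 bp, the one at 135545246.

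**Figure D5:**
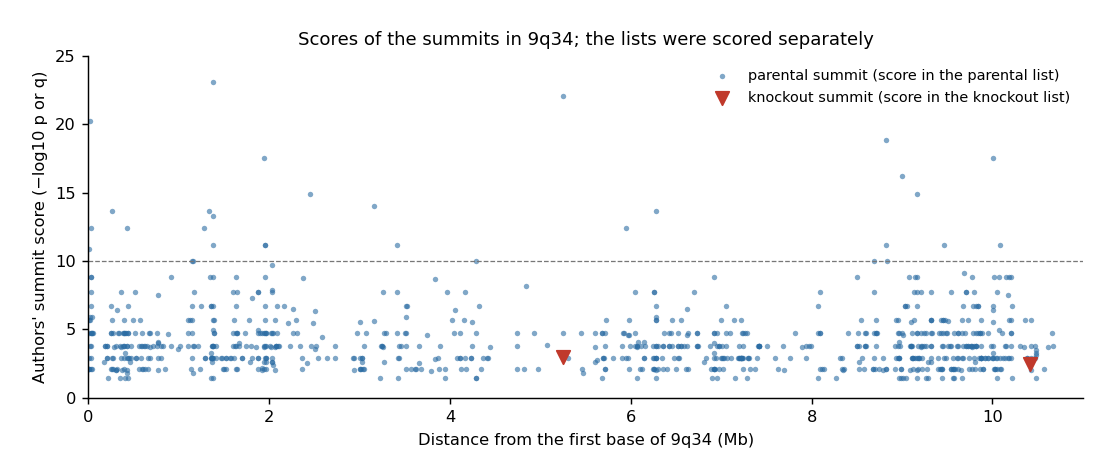
Authors' score (y axis) of each parental summit (blue dots) and knockout summit (red triangles) against distance in Mb from the first base of 9q34 (x axis); the dashed line marks a score of 10, and scores of the lists are not on a shared scale. The dots line up at a few repeated values, and 1 red triangle lies below the parental summit of score 22.1 in 9q34.13, while the other has no parental summit within 12609 bp.

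The knockout list had 2 summits in 9q34, 5.16 Mb apart, and they differed in their surroundings. The first lay at 135545115 in 9q34.13 with a score of 3.01, a rank of 313 among the 385 knockout summits. It was 131 bp from the second highest parental summit of the region, the one of score 22.1. The other lay at 140709905 in 9q34.3 with a score of 2.48 (rank 347), and the nearest parental summit, of score 2.93, was 12609 bp away, although 6 parental summits lay within 50 kb. Both scores were below the knockout list's median of 4.65. Bands 9q34.11, 9q34.12 and 9q34.2, with 312, 30 and 134 parental summits, had no knockout summit.

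Against the length of the lists this was few. The region held 1.90% of the parental list and 0.519% of the knockout list (0.0630 to 1.86), and the whole-list ratio of knockout to parental summits, applied to 872 summits, gives 7.31. The remainder of chromosome 9 held 13 knockout summits for 1448 parental ones, 17q25.3 held 6 for 693 and 11q13.1 held 6 for 288. Low numbers were common, however: 28 of the 41 arm ends had 2 knockout summits or fewer, and band 16q24.3, at 114.2 parental summits per Mb, had none for 189. Among the 5 densest arm ends 9q had the fewest, with 2 against 10 on 8q, 8 on 17q, 6 on 19p and 13 on 20q.

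Seen from the parental summits, 1 of the 872 (0.115%, 0.00290 to 0.637) had a knockout summit within 200 bp, against 0.636% of the whole parental list. It was also 1 of 872 within 1000 bp, against 1.21%. These shares depend on score, and low scores were more common in the region. Elsewhere, 28.6% of summits scoring 20 or more had a knockout summit within 200 bp, against 0.0951% at 2 to 3. At the rates of the same score classes elsewhere, the 872 would give 3.83 within 200 bp and 8.03 within 1000 bp. Of the region's 31 summits with a score of at least 10, 1 had a knockout summit within 1000 bp (3.23%, 0.0816 to 16.7). The share of such summits in the whole list was 8.44%, which lies inside this interval. A knockout summit can count for several parental neighbours, so these figures do not count independent events, and the shortage belongs to what the region was chosen for.

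Among the 3 genes with hg19 transcript models, EXOSC2 and CERCAM had a parental summit within 500 bp of a start, and PAEP did not. For CERCAM this depended on the model. EXOSC2, at 133569167-133580279 on the plus strand in 9q34.12, had a parental summit in an exon of its model at 133569298, 131 bp downstream of the start, with a score of 4.71. A further summit of score 2.62 lay at 133571516, outside the exons of the model. CERCAM, on the plus strand in 9q34.11, has 4 models with starts from 131174045 to 131186321 and held 1 summit, at 131183245 with a score of 4.70. That summit lay 486 bp downstream of the start at 131182759 and 9200 bp downstream of the outermost start. Whether it lay in an exon of CERCAM was not determined. PAEP, at 138453602-138458800 in 9q34.3, had no summit in the gene, and the nearest, of score 2.14, lay upstream at 138438813, at -14789 bp relative to the start. The knockout summit nearest to any of these starts lay 1975948 bp away, from EXOSC2. These 3 genes were those in the models at hand, not a sample of the band.

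The 3 genes also serve as markers of gene order. In RefSeq's order of GRCh38.p14, 41 protein-coding genes stood from CERCAM up to EXOSC2, 63 from EXOSC2 up to PAEP and 84 from PAEP to the chromosome end. Between the same markers in hg19 the parental list held 195, 264 and 290 summits, or 81.4, 54.0 and 105.1 per Mb. Per coding gene this was 4.76, 4.19 and 3.45 summits, so the stretch with the most summits per Mb had the fewest per gene. From CERCAM to the end there were 3.98 summits per coding gene, against 2.66 for chromosome 9 before CERCAM and 2.30 for chromosomes 1 to 22 and X. Per Mb the same 3 stretches were 74.6, 12.0 and 15.1, and coding genes per Mb of hg19 were 18.7, 4.50 and 6.58. The stretch from CERCAM to the end thus stood further above the genome per Mb than per coding gene.

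The genes in these intervals come from lists written from general knowledge with earlier results of these data known. No summit is assigned to them, since their hg19 positions were not used here. From CERCAM up to EXOSC2 stand SET, a histone chaperone, PTGES, the inducible prostaglandin E synthase, and CRAT, a carnitine acetyltransferase. From EXOSC2 up to PAEP stand 63 of the 188 coding genes from CERCAM to the end. The chromatin and transcription list has 24 genes, 23 of them from CERCAM to the end, and 13 of these stand in the same interval. That list was picked by hand, and the difference between the shares was not tested. Among the 13 are BRD3, WDR5, a subunit of histone methyltransferase complexes, and RXRA, the retinoid X receptor that pairs with the oxysterol receptors of the LXR family. ABL1, TSC1, a brake on mTOR signalling, and the surfeit genes SURF1, SURF2, SURF4 and SURF6 lie in the same interval, which also contains the knockout summit next to the parental summit of score 22.1. From PAEP to the end stand NOTCH1, its feedback inhibitor NRARP, EHMT1, NELFB, a subunit of the negative elongation factor, TRAF2, an adaptor of TNF receptor signalling, and 6 lipocalin genes of restricted expression from LCN6 to LCN15. The list of tissue-restricted genes has 27 members, 26 of them from CERCAM to the end, and 13 of these stand in this last interval. The interval also has 84 of the 188 coding genes from CERCAM to the end, so the list had no marked excess there.

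Promoters of the band were rich in G and C in the same table. Over 231 promoters of 166 coding genes from CERCAM to the chromosome end, the 250 bases before the start had a median of 68.4% G and C and 22 CpG dinucleotides. Over 22132 promoters of chromosomes 1 to 22 and X the medians were 62.0% and 16. GGGCGG was present in 65.4% of the 231 and CCAAT in 23.4%, against 53.7% and 32.7% of all coding promoters. Of the 188 coding genes in the interval 22 had no entry in the promoter table. Over the 3 intervals from CERCAM to the end, the median promoter G and C was 68.4%, 66.2% and 69.6%. Coding genes per Mb were 17.1, 12.9 and 30.4, and summits per Mb were 81.4, 54.0 and 105.1. All 3 measures stood in the same order, but over only 3 intervals and without the part of 9q34 before CERCAM. The part of promoter composition or gene density in summit density was not tested.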

How the data were processed

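The authors deposited 1 list of peak summits per library, with a position and a score per summit. Scores are the authors' −log10 of p or of q; neither labels nor files say which. Per the submitters' processing notes, the tools were MACS2 2.0.10, Bowtie2 2.2.3, Picard 1.127 and FastQC 0.11.2, on build hg19, without role or settings. The sources used here do not give the control library, threshold or duplicate handling. Scores depend on depth and control, so they were compared only within a list.

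Positions are 1-based hg19 coordinates. Bands came from circlize 0.4.16 and chromosome lengths from GenomeInfoDb 1.38.1. Transcript models came from examples shipped with pyranges 0.1.4, which state no build, and GenomicFeatures 1.54.1. All 3 genes matched the RefSeq table of GRCh38.p14, used for names, order and promoter sequences. Summits within 200 bp were called shared, and a score of at least 10 high. Intervals are exact Poisson for counts and Clopper-Pearson for shares, at 95%, and for counting error only. Computation used Python 3.11.15, matplotlib 3.10.9, scipy 1.17.1, pandas 2.3.3 and numpy 2.4.6; counting of runs, windows and shared summits was tested on simulated data.

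The members and lists were chosen with earlier results of these data known. Named were every knockout summit, the 20 highest parental summits and the highest of each band, the 5 fullest windows, the longest empty stretch and the 5 largest runs, besides the gene lists. No test was made, since each genotype has 1 library. Alternatives covered score minimums, merging, bands left out, window sizes, run rules, sharing distances and start site windows.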

Additional observations from a re-analysis of the deposited data

How the results depend on the processing

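No paired analysis was possible because each genotype has 1 library. A density or count was taken to hold within 1.5 times its main value and a share inside its 95% interval; of 30 alternatives 19 held and 11 did not. The density of 79.9 per Mb fell to 16.4 when only scores from 5 upward were kept and to 2.84 from 10 upward. Leaving out a band gave 72.6 to 91.2, merging summits within 500 bp gave 72.9, and 4 alternatives added after seeing the data gave 75.2 to 101.2. No knockout summit of the region had a score of at least 5 or of at least 10 (0 against 2), and no parental summit had one within 100 bp (0%). Runs held 22.6% of the summits with gaps up to 2500 bp, 53.7% up to 10000 bp and 43.8% from 4 summits on. Elsewhere these settings gave 17.7%, 38.5% and 35.2%. Scores of at least 5 and 20 were reached by 20.5% and 0.344% (elsewhere 29.8% and 0.653%). At a score of at least 5 none of the 3 genes (0%) had a summit within 1 kb of a start. With all summits the share was 66.7% (9.43 to 99.2), where CERCAM counted if any of its 4 starts had one. All of these changes follow from how each setting is built. The planned share of start sites over all genes was not computed, since only 3 genes of the band had hg19 models. Composition and motifs under the summits, planned as a result of their own, were not run because they need the hg19 sequence. The lists come without read numbers, which limits how far one can be set against the other.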

Other observations

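The opposite end of the same chromosome was among the sparsest. The outermost 10.9 Mb of 9p held 30 parental summits (2.75 per Mb), rank 40 of the 41 arm ends, against 872 on 9q, and no knockout summit.

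The lead of 9q34 over chromosomes 1 to 22 and X without 9q34 in parental density narrowed as the score minimum rose. It was 5.37 times with all summits, 3.69 times at a score of at least 5 and 3.02 times at 10, and with summits within 500 bp merged it was 5.41 times. The cause was not tested.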
